A study of Mus musculus with 6 samples.

Results

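The miR-23, miR-27 and miR-24 miRNAs of LLC1 cells were compared between lr-ECM 3D and 2D culture. Members were taken by name from the mouse miRNAs on the array, as every mature miRNA called mmu-miR-23a, mmu-miR-23b, mmu-miR-27a, mmu-miR-27b or mmu-miR-24 with either arm. This gave 9 of 566 mouse miRNAs. The 3p arm was represented by 5 of them, mmu-miR-23a-3p, mmu-miR-27a-3p, mmu-miR-24-3p, mmu-miR-23b-3p and mmu-miR-27b-3p. The other 4 were the 5p arms miR-27a-5p, miR-27b-5p, miR-24-1-5p and miR-24-2-5p. The 5p arms of miR-23a and miR-23b were not analysed here.

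LLC1 is an established line of mouse Lewis lung carcinoma, so every replicate came from 1 line. For 2D culture the cells grew on plastic, and for lr-ECM 3D culture they were embedded in 0.5 mg/ml of Geltrex, a laminin-rich matrix, over agarose. Both groups were kept for 48 h in DMEM with 10% fetal bovine serum, glutamine and antibiotics, and no other agent was added to either. Each group had 3 biological replicates with 1 single-colour array each, hybridised with 100 ng of total RNA labelled with Cy3.

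A primary miRNA transcript is cut into hairpins in the nucleus, and each hairpin is then cut into a duplex of a 5p and a 3p strand, of which usually only one is retained as the guide strand. The miR-23a, miR-27a and miR-24-2 hairpins are made from one transcript, and the paralogous miR-23b, miR-27b and miR-24-1 hairpins from another. Bases 2 to 8 of the guide strand, the seed, largely decide which mRNAs it represses, so paralogues with the same seed share most of their targets. The clusters are best known for their action on endothelial cells and vessel growth, and are also studied in tumour growth and invasion.

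In GRCm38.p6, the mouse assembly of the RefSeq tables used here, the a cluster spanned 404 bp of the plus strand at chr8:84208518-84208921. The hairpins lay there in the order Mir23a, Mir27a and Mir24-2. No protein-coding gene span in the RefSeq table overlapped it, and the span of Zswim4 lay at chr8:84210942-84237042. The b cluster spanned 792 bp of the plus strand at chr13:63300484-63301275, in the order Mir23b, Mir27b and Mir24-1. It lay within the span of the protein-coding gene Aopep, at chr13:62964893-63326096. The table gives gene spans only, so exons and introns were not assigned.

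RefSeq held mature sequences for 8 of the 9 members. The 3p strands are shown because the comparison of the clusters rests on how far the array can separate them, and both strands of miR-27 because the arms are compared further on. Capitals mark the seed, bases 2 to 8 from the 5′ end.
miR-23a-3p (chr8:84208563-84208583): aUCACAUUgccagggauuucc
miR-27a-3p (chr8:84208727-84208747): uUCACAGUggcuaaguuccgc
miR-27b-3p (chr13:63300760-63300780): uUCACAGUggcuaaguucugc
miR-24-3p (chr8:84208875-84208896 and chr13:63301251-63301272): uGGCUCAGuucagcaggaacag
miR-27a-5p (chr8:84208685-84208706): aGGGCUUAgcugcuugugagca
miR-27b-5p (chr13:63300718-63300739): aGAGCUUAgcugauuggugaac

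The 3p strands of miR-27a and miR-27b had the same seed and were identical except for C19U, counted from the 5′ end with the base of miR-27a first. Compared base by base without gaps, the 5p strands of the same hairpins differed at 8 of 22 positions. An alignment with gaps was not made. Mature miR-24-3p is the same molecule from both clusters, so its signal is a sum that the array cannot divide between them. Among the 3p strands shown, miR-24-3p shared its seed with 0 other mouse miRNAs on the array. The seed table did not cover miR-23b-3p. How much each miR-23 or miR-27 probe binds the other paralogue was not tested.

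Before scaling, the mean signal over miRNA probes was 5.03 on 2D replicate 2, against 21.4 and 40.4 on the other 2D arrays and 37.8 to 49.9 on the lr-ECM 3D arrays. The array of 2D replicate 2 also had 48 detected mouse miRNAs, against 75 to 151 on the others. Each array was scaled to the mean of the 2D arrays, with factors from 0.447 to 4.43, and levels are given as log2 of the scaled signal. For this reason the main results are also given without 2D replicate 2. The arrays lay on 2 slides scanned on 2 days, and no slide or day held both groups, so slide, scan day and culture cannot be told apart. None of 6 epithelial marker miRNAs of the miR-200 and miR-205 group was well above background on any array. Of 6 miRNAs known from blood cells 2 were, miR-142a-3p and miR-142a-5p, while miR-223-3p, miR-451a, miR-150-5p and miR-144-3p were not on any array. The summed scaled signal of these 6 was 280 to 544 in 2D and 259 to 276 in lr-ECM 3D, and its part in the results was not tested. Endothelial, liver and nervous system markers were not well above background on any array, and of 4 muscle markers only miR-206-3p was, on 1 lr-ECM 3D array.

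All 5 of the 3p members could be tested in LLC1 cells, and none met the criteria for a change between lr-ECM 3D and 2D. Those were an adjusted p under 0.05 in limma and a fold of at least 2, which 11.7% of the 120 tested miRNAs met, 10.8% as higher and 0.833% as lower in lr-ECM 3D. Each of the 13 called as higher was well above background on 0 arrays of 2D, unlike the 3p members. Of the 48 miRNAs detected on all 6 arrays, 4 of the 3p members among them, 0 were called when only these were tested. The methods' t-test with the same fold limit also called 0 of the 5. Their unadjusted limma p values ran from 0.0345 for miR-27b-3p to 0.805 for miR-24-3p. The b members, miR-23b-3p and miR-27b-3p, had the lowest values of the 5, with the 2D and lr-ECM 3D arrays not overlapping. The a members and miR-24-3p overlapped between the groups.

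miR-23a-3p, the first miRNA of the a cluster, had log2 levels of 8.47, 9.73 and 8.64 on 2D replicates 1, 2 and 3. On the lr-ECM 3D arrays it was at 8.66, 8.78 and 8.73. The lr-ECM 3D arrays lay inside the range of the 2D arrays, of which replicate 2 was the highest. The means were 8.95 ± 0.69 in 2D and 8.72 ± 0.06 in lr-ECM 3D (SD, n = 3), a difference of -0.23 (SE 0.35, limma adjusted p = 0.677).

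miR-27a-3p, whose family is known to repress the Sprouty and semaphorin genes that restrain vessel sprouting, was at 8.35, 9.02 and 8.39 in 2D on the log2 scale. In lr-ECM 3D it was at 8.33, 8.42 and 8.39. Again 2D replicate 2 was the highest and the groups overlapped. The difference of means was -0.21 (SE 0.21, limma adjusted p = 0.516), from 8.59 ± 0.37 to 8.38 ± 0.05 (SD, n = 3).

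miR-24-3p, known to act on cell cycle genes, had the steadiest log2 levels of the 5 across the 2D arrays, at 8.31, 8.44 and 8.17. The lr-ECM 3D arrays were at 8.23, 8.33 and 8.26, all within the 2D range. The means were 8.31 ± 0.13 and 8.27 ± 0.05 (SD, n = 3), and the difference was -0.03 (SE 0.12, limma adjusted p = 0.862).

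miR-23b-3p was at 6.48, 7.68 and 6.63 in 2D and at 6.17, 6.26 and 6.11 in lr-ECM 3D on the log2 scale. Every lr-ECM 3D array was lower than every 2D array, with 2D replicate 2 standing far above the rest. The means were 6.93 ± 0.65 and 6.18 ± 0.07 (SD, n = 3), with a difference of -0.75 (SE 0.34, limma adjusted p = 0.242).

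miR-27b-3p was at 6.29, 6.99 and 6.52 in 2D and at 6.01, 6.05 and 6.04 in lr-ECM 3D. The groups did not overlap here either. On 2D replicate 2, where it was brightest after scaling, only 40% of its spots were well above background, so miR-27b-3p counted as detected on 5 of 6 arrays and the other 3p members on all 6. The means were 6.60 ± 0.36 and 6.03 ± 0.02 (SD, n = 3), with a difference of -0.57 (SE 0.20, limma adjusted p = 0.170).

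**Figure D1:**
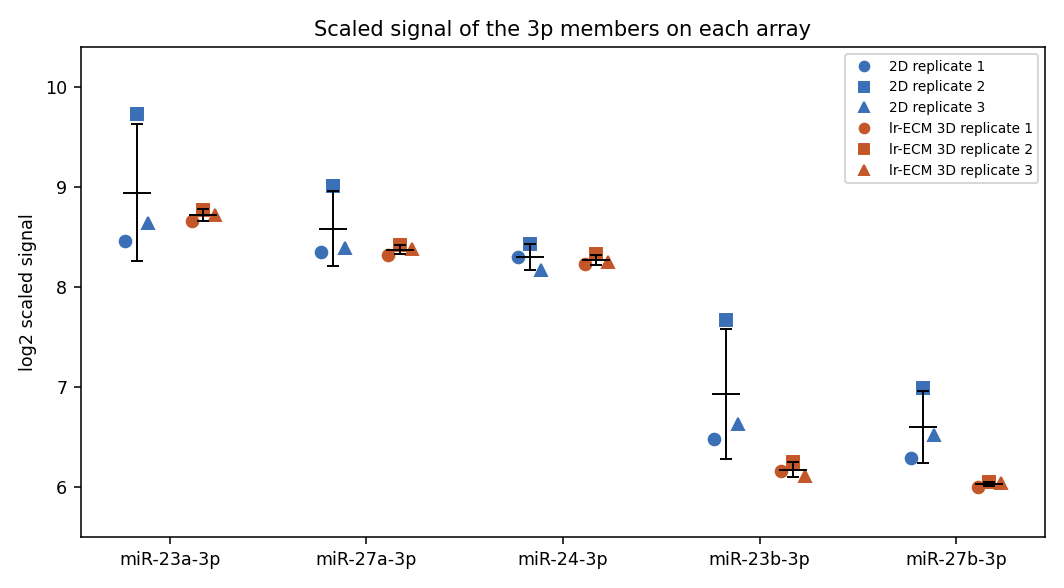
Log2 scaled signal (y axis) of the 5 3p members (x axis) on each array; blue symbols are 2D and orange symbols lr-ECM 3D, the symbol shape gives the replicate number, and bars are the mean ± SD of 3 arrays. The square of 2D replicate 2 is the highest point of every member, and all lr-ECM 3D points lie under all 2D points for miR-23b-3p and miR-27b-3p. Heights of different miRNAs are not comparable, since each has its own probe.

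The arrays of the groups did not overlap for 2 of the 5 members, both lower in lr-ECM 3D. Among all 120 tested miRNAs the same held for 42.5% in either direction and 22.5% as lower. The share of members was thus near that of the array in either direction. The b members' differences depended on 2D replicate 2 and on the scaling. Without 2D replicate 2, miR-23b-3p differed by -0.38 (limma adjusted p = 0.0323) and miR-27b-3p by -0.37 (adjusted p = 0.0386), smaller differences with less spread and both under the fold limit. With quantile normalization the differences were -0.94 (adjusted p = 0.0147) and -0.87 (adjusted p = 0.0053) by limma. With no scaling they had the opposite sign, 0.60 and 0.79 (limma adjusted p = 0.444 and 0.356).

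The median of all tested miRNAs moved with the scaling as well, from -0.11 on the log2 scale as scaled here to 1.24 with no scaling. Relative to that median, the differences were -0.12 for miR-23a-3p, -0.10 for miR-27a-3p and 0.08 for miR-24-3p. They were -0.64 for miR-23b-3p and -0.46 for miR-27b-3p. The median was taken over all 120 tested miRNAs, of which 29 were well above background on 0 arrays of 2D. Where only miRNAs detected on all 6 arrays were tested, it was -0.27. Relative to that value, miR-23a-3p, miR-27a-3p and miR-24-3p were at 0.05, 0.06 and 0.24, and miR-23b-3p at -0.48. Under every alternative that tested them, the b members stayed below the median, by values from -0.87 to -0.35 for miR-23b-3p and from -0.79 to -0.31 for miR-27b-3p. The a members took both signs, from -0.35 to 0.26 for miR-23a-3p and from -0.22 to 0.22 for miR-27a-3p, and miR-24-3p lay between -0.01 and 0.33.

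**Figure D2:**
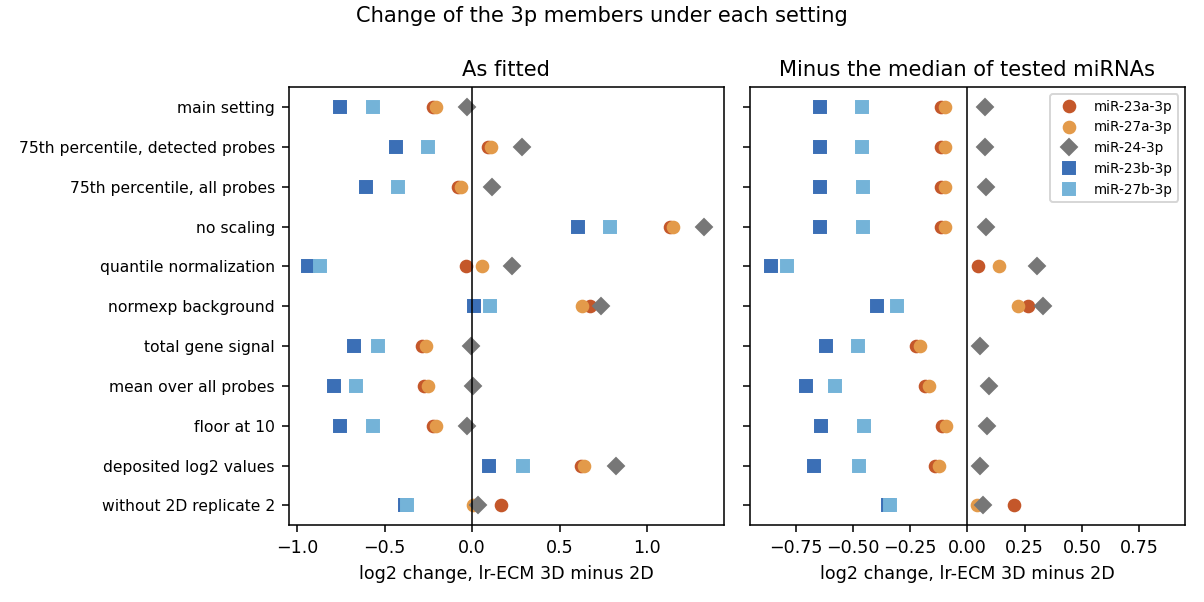
Difference between lr-ECM 3D and 2D on the log2 scale (x axis) for each 3p member under each processing setting (y axis), as fitted (left) and minus the median of the tested miRNAs (right). As fitted, each of the 5 members lies on both sides of 0 over the settings drawn. On the right the squares of miR-23b-3p and miR-27b-3p stay left of 0 and left of the a members and miR-24-3p in each setting drawn.

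The a and b clusters were compared within each array as the log2 ratio of one paralogue to the other. Any factor that multiplies a whole array cancels in this ratio. Its height depends on the pair of probes, so only its difference between the groups was read. For both paralogue pairs the a member gained on the b member in lr-ECM 3D, with no overlap between the groups.

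Before scaling, miR-23a-3p and miR-23b-3p gave signals of 340 and 86.1 on 2D replicate 1, 192 and 46.2 on 2D replicate 2, and 724 and 180 on 2D replicate 3. On the lr-ECM 3D arrays they gave 905 and 161 on replicate 1, 762 and 133 on replicate 2, and 720 and 117 on replicate 3. The array of 2D replicate 3 was as bright for miR-23a-3p as lr-ECM 3D replicates 2 and 3, yet brighter for miR-23b-3p than any of the lr-ECM 3D arrays. The log2 ratios were 1.98, 2.05 and 2.01 in 2D and 2.49, 2.52 and 2.62 in lr-ECM 3D. The means were 2.02 ± 0.04 and 2.54 ± 0.07 (SD, n = 3), a difference of 0.53 (SE 0.04), or 1.44-fold. The exact two-sided permutation p was 0.1, the smallest that 3 arrays against 3 can give, and 0.2 after Benjamini-Hochberg adjustment over the 10 pairs of 3p members.

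For miR-27a-3p and miR-27b-3p, the unscaled signals were 314 and 75.1 on 2D replicate 1, 117 and 28.8 on 2D replicate 2, and 608 and 167 on 2D replicate 3. On the lr-ECM 3D arrays they were 719 and 144 for replicate 1, 595 and 115 for replicate 2, and 568 and 112 for replicate 3. Here too 2D replicate 3 had the highest miR-27b-3p signal of the 6 arrays but not the highest miR-27a-3p signal. The log2 ratios were 2.07, 2.02 and 1.87 in 2D and 2.32, 2.37 and 2.34 in lr-ECM 3D. The means were 1.98 ± 0.10 and 2.34 ± 0.03 (SD, n = 3). The difference of 0.36 (SE 0.06), or 1.28-fold, was smaller than that of miR-23, with the same exact permutation p of 0.1 and adjusted p of 0.2. Without 2D replicate 2 the differences were 0.55 for miR-23 and 0.38 for miR-27, again with no overlap. A lack of overlap is easier to reach there, since only 10 splits exist, and its share over all pairs is not given.

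**Figure D3:**
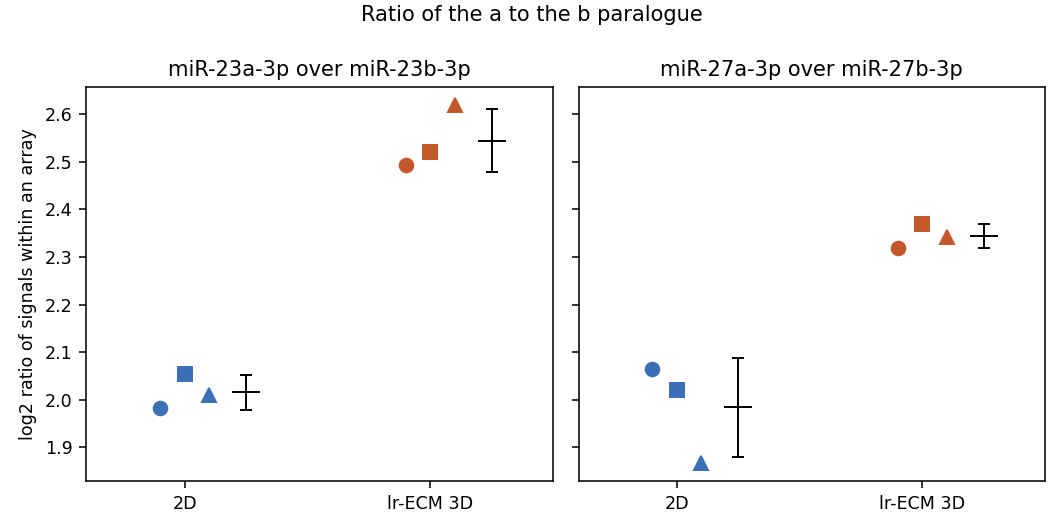
Log2 ratio of the a to the b paralogue within an array (y axis) for miR-23 (left) and miR-27 (right), with 1 point per array, symbol shape by replicate number as circle, square and triangle for 1, 2 and 3, and the mean ± SD of 3 arrays beside each group. In both panels the 3 lr-ECM 3D points lie above the 3 2D points. The axis does not start at 0.

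**Figure D4:**
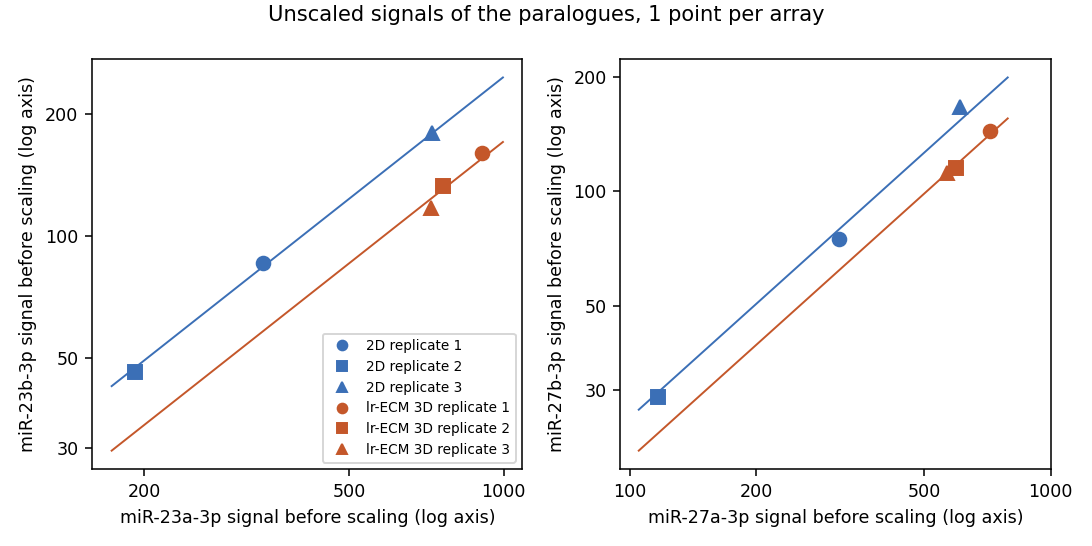
Unscaled signal of the b paralogue (y axis, log) against the a paralogue (x axis, log) for miR-23 (left) and miR-27 (right), 1 point per array. Each line is the mean log2 ratio of a group. The lr-ECM 3D points lie along a line under that of the 2D points, also where the a paralogue was of like brightness.

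Such shifts were common on these arrays. Of the 2775 pairs formed by the 75 miRNAs well above background on 5 or 6 arrays, the log ratio did not overlap between the groups in 27.9%. The absolute difference was at least as large as that of the miR-23 pair in 19.1% of the pairs and at least as large as that of the miR-27 pair in 35.0%. With each ratio taken as the brighter over the dimmer miRNA, as in both paralogue pairs, 12.4% of all pairs were higher in lr-ECM 3D with no overlap. Among the 669 pairs that lay 1.5 to 2.5 apart on the log2 scale, as the paralogues did, it was 12%, and their median difference was -0.06. Pairs share arrays and miRNAs, so these shares are a description.

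Signals near background also differed between the groups. The median signal of the 672 negative control spots of an array was 7.65, 7.44 and 6.60 in 2D and 5.09, 4.33 and 4.54 in lr-ECM 3D. With this median subtracted from each array, an alternative chosen after the data were seen, the difference was 0.46 for miR-23 and 0.24 for miR-27. The groups still did not overlap, but for miR-27 only just, with 2.36 on both 2D replicate 2 and lr-ECM 3D replicate 1 at this rounding.

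Each of these 4 miRNAs had a second, dimmer probe. All 4 combinations of miR-23a-3p and miR-23b-3p probes were higher in lr-ECM 3D without overlap, by 0.31 to 0.68 on the log2 scale. For miR-27, 3 of 4 combinations did not overlap. The exception, the second miR-27a-3p probe over the brighter miR-27b-3p probe, differed by 0.22 with overlap (exact permutation p = 0.3). The combinations with the second miR-27b-3p probe gave 0.68 and 0.82, but that probe was well above background on only 2 arrays.

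Over all pairs of 3p members, the difference of miR-24-3p between the groups was nearer to those of the a members than to those of the b members. The 6 ratios of an a member or miR-24-3p to a b member were higher in lr-ECM 3D by 0.34 to 0.72 on the log2 scale, and 5 of them did not overlap. The exception was miR-23a-3p over miR-27b-3p, in which 2D replicate 2 lay above the lr-ECM 3D arrays. Without that array all 6 ratios were free of overlap. Only 10 splits exist then, against 20 over the 6 arrays, so a lack of overlap is easier to reach. The share of all pairs without overlap is not given for that setting. Over the 6 arrays, 27.9% of the 2775 pairs described above did not overlap in either direction. With the brighter miRNA over the dimmer, 12.4% were higher in lr-ECM 3D without overlap. The 6 ratios were formed from the same 5 miRNAs, so they are not independent. The 2 ratios of miR-24-3p to the b members differed by 0.72 for miR-23b-3p and 0.54 for miR-27b-3p. The 4 ratios within the a cluster with miR-24-3p, or within the b cluster, differed by -0.19 to -0.02, and 0 of the 4 were free of overlap. Without 2D replicate 2 it was 1 of 4, miR-23a-3p over miR-27a-3p, at 0.16.

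The arms could not be compared as a ratio, because no 5p member was well above background. The 4 miRNAs of the 5p arm had 12 probes, and 0 of their 480 spots over the 6 arrays carried that flag. Their unscaled probe signals were between -7.81 and 8.57, and 7 of the 12 probes were below 0 on every array. The dimmest probe well above background gave 22.1 to 29.7, depending on the array. All 3p probes of the same hairpins, the dimmer ones included, gave 9.77 to 719 for miR-27a and miR-27b and 57.0 to 672 for miR-24 before scaling. These values do not show that the 5p strands were absent, and no difference between lr-ECM 3D and 2D could be read for them.

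The miRNAs whose levels followed the mean of the 3p members most closely were miR-125b-5p, miR-34b-5p and miR-296-5p. Likeness was the root mean square difference of centred log2 levels over the 6 arrays, which was 0.06, 0.07 and 0.09 for these 3 and 0.32 for the median of the 115 other tested miRNAs. Their own differences between lr-ECM 3D and 2D were -0.36, -0.28 and -0.25 on the log2 scale, and none was called. The order rested on 2D replicate 2, since without it these 3 ranked 7, 13 and 30 and miR-29b-3p, miR-16-5p and miR-93-5p came first. By the same measure over 6 arrays, miR-23a-3p and miR-27a-3p were 0.18 apart and miR-23b-3p and miR-27b-3p 0.21, against 0.27 for miR-23a-3p and miR-23b-3p and 0.19 for miR-27a-3p and miR-27b-3p. miR-24-3p was 0.18 from miR-27a-3p, 0.35 from miR-23a-3p and 0.32 from miR-27b-3p, so nearer to this b member than to miR-23a-3p. The widest of the 10 gaps was 0.48, between miR-24-3p and miR-23b-3p. Without 2D replicate 2 that gap was 0.22, and the gaps between miR-23a-3p and miR-27a-3p and between miR-23b-3p and miR-27b-3p were 0.09 and 0.05. Those between the paralogues were then 0.27 for miR-23 and 0.20 for miR-27. Without that array miR-24-3p was 0.06 from miR-27a-3p, 0.12 from miR-23a-3p and 0.23 from miR-27b-3p.

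Other miRNAs known to act on vessel growth were taken as a list of 21, of which 20 were matched by name on the array and 14 tested. The list held miR-17-5p, and the array's miR-17_v17.0 was tested but not counted in the list. It differed by -0.11 on the log2 scale (limma adjusted p = 0.572). None of the 14 was called by limma as higher or lower in lr-ECM 3D, or by the methods' t-test. The lowest unadjusted limma p was 0.0147, for miR-222-3p. Their median difference was -0.20 on the log2 scale, against -0.11 for all tested miRNAs. Of the 14, 13 were below 0 and 1 above, where 76 of all 120 were below 0. Those 120 include 29 that were well above background on 0 arrays of 2D, while each of the 14 was on at least 1. For the 48 miRNAs detected on all 6 arrays the median difference was -0.27. Relative to the median of all tested miRNAs, 9 of the 14 were below and 5 above. The brightest were miR-19b-3p at -0.21, let-7f-5p at -0.30 and miR-20a-5p at -0.19, where miR-19b and miR-20a are made by the miR-17-92 cluster. Picked after their values were seen, the 1 above 0 was the hypoxia-induced miR-210-3p, at 0.39 with overlap. The 4 without overlap, all lower in lr-ECM 3D, were miR-19b-3p, miR-130a-3p, miR-221-3p and miR-222-3p, a count of 4 of 14 where 22.5% of all tested miRNAs were lower without overlap and 42.5% did not overlap in either direction.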

How the data were processed

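MiRNA levels were measured with 1-colour Agilent mouse miRNA arrays in 3 2D and 3 lr-ECM 3D cultures of LLC1 cells, grouped by the sample labels. The authors extracted spot intensities with Feature Extraction 10.7.3.1. The deposited intensities are background-subtracted, linear and not normalized between arrays. The deposited files also hold other columns, 0 or 1 flags for outliers and detection, and a table of log2 values by the authors.

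Control spots and 190 to 369 outlier spots per array were left out, with 0 saturated miRNA spots. Replicate spots were averaged to 1 value per probe (7 to 10 spots per 3p probe, CV 1.50% to 17.1%). Each array was scaled so that its mean over 1712 miRNA probes equalled the mean of the 2D arrays, a reading of the methods' scaling, then floored at 1 and converted to log2. Where a miRNA had several probes, the one of highest mean level was used. Testing required the detection flag on at least 50% of its spots on each of the 3 arrays of either group.

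Tests were two-sided: limma 3.58.1 in R 4.3.3 over 120 miRNAs with Benjamini-Hochberg adjustment, and exact permutation of arrays (20 splits, smallest p 0.1) for ratios. The scripts were tested on simulated data. The number of arrays limits the precision. The members and lists were chosen with earlier results of these data known. Named miRNAs are all members, the 3 listed vessel-growth miRNAs with the highest mean and any that was called, and the 3 miRNAs most like the members. Other vessel-growth miRNAs and those nearest the members without 2D replicate 2 were named after their values were seen. Alternative scalings, background corrections, filters and tests were also run.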

Additional observations from a re-analysis of the deposited data

How the results depend on the processing

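No tested member was called under any alternative run, though miR-27b-3p was not tested where detection on all 6 arrays was required. The signs of their differences varied with the processing. The median of the tested miRNAs also moved, from -0.11 to 0.21 with the 75th percentile of detected probes. It was 0.04 with that of all probes, 1.24 with no scaling, 0.41 with normexp and 0.76 in the deposited log2 values. Where detection on all 6 arrays was required it was lower, at -0.27. On the log2 scale, miR-23a-3p turned to 0.0913, 1.13, 0.67 and 0.62 with the 75th percentile of detected probes, no scaling, normexp and the deposited values. miR-27a-3p turned to 0.11, 1.15, 0.63 and 0.64 in that order, and to 0.0580 with quantile normalization. miR-24-3p turned to 0.29, 1.33, 0.74 and 0.82 in that order, to 0.12 with the 75th percentile of all probes, to 0.23 with quantile normalization and to 0.0059 with the mean of its probes. miR-23b-3p turned to 0.60, 0.0122 and 0.10 and miR-27b-3p to 0.79, 0.10 and 0.29 with no scaling, normexp and the deposited values. Without 1 array, miR-23a-3p ranged from -0.47 to 0.17, miR-27a-3p from -0.33 to 0.0054 and miR-24-3p from -0.0981 to 0.0334, each highest and above 0 without 2D replicate 2 alone. The scaling alone moves all members of an array together. The cause of the reversals was not tested.

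The miR-23 log ratio was higher in lr-ECM 3D under every alternative, by 0.39 (total gene signal) to 0.90 (quantile normalization), and by 0.49 to 0.55 without 1 array. The miR-27 log ratio was higher by 0.24 (negative controls subtracted) to 0.92 (quantile normalization), and by 0.30 to 0.40 without 1 array. With total gene signal it was 0.27 and the groups overlapped (exact permutation p = 0.4).

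The count of all mouse miRNAs called, 14 as reported, was 25 with the 75th percentile of all probes, 27 with no scaling, 27 in the deposited values, 32 with no filter, 0 where detection on all 6 arrays was required, and 12 to 32 without 1 array, the highest without 2D replicate 2. In the vessel-growth list the count of 0 became 2 with no filter (miR-378a-5p and miR-378a-3p) and ranged from 0 to 1 without 1 array (miR-378a-5p without lr-ECM 3D replicate 2).

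The labels do not say whether the replicate numbers pair the arrays. Deviations from the group means correlated at -0.32, -0.37 and 0.16 between same-numbered arrays, and at -0.32 to 0.35 between differently numbered ones. Deviations within a group sum to 0, so these values cannot settle the pairing. With the number as a replicate block, 12 miRNAs and 0 members were called, and the paired sign-flip permutation gave its smallest possible exact p of 0.25 for both ratios. The ratio of 3p to 5p arms was not run under any setting, because no 5p arm was well above background.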
